A study of Homo sapiens with 8 samples.

Results

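Messenger RNA levels of 10 genes of the YAP and TEAD programme were followed in human keratinocytes of the immortalised line N/TERT-2G, 1 genotype in which tetracycline switches on a short hairpin RNA. The hairpin targets AREG, which encodes amphiregulin, a ligand of the EGF receptor. The 10 genes were chosen by symbol from a table of 21510 gene symbols: CTGF, CYR61, THBS1, AXL, ANKRD1, AMOTL2 and LATS2, which are widely read as targets, and YAP1, WWTR1 and TEAD1, which encode the factors themselves. Every library came from subconfluent cells that carry the hairpin, collected at 60 h. The Tet+EGF group (2 libraries) received tetracycline at 1 µg/ml with recombinant EGF at 20 ng/ml, the Tet group (3 libraries) tetracycline at 1 µg/ml alone, and the control group (3 libraries) neither agent. Tetracycline and the hairpin came together in these groups, so their effects cannot be told apart. Batch 1, as named in the sample descriptions, held replicates 2 and 3 of Tet and of control, and batch 2 held both Tet+EGF libraries with replicate 1 of Tet and replicate 1 of control.

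YAP1 and its paralogue WWTR1, also called TAZ, are transcriptional coactivators that cannot bind DNA alone and act mainly through the TEAD family of DNA-binding factors. The Hippo kinases LATS1 and LATS2 phosphorylate both coactivators and keep them out of the nucleus, and some targets, such as LATS2 and AMOTL2, feed back on them. In epidermis YAP1 is known for its activity in basal cells, where cell spreading, tension and growth factor signals keep it nuclear.

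Levels are RPKM, reads per kilobase of gene scaled to the mapped reads, so they can be set side by side between genes. The read totals were not used here, and depth, judged only from the steps between low values, lay between 63.3% and 110.5% of that of the control replicate 1 library. AREG itself, the check of the hairpin, was at 20.9 and 17.4 RPKM in the Tet+EGF libraries, 6.63, 16.7 and 16.2 RPKM in the Tet libraries, and 315.6, 202.1 and 188.8 RPKM in the control libraries. All 8 keratinocyte markers looked for were above 1 RPKM, KRT5 and KRT14 included. Among markers of other cells, 4 of 12 fibroblast genes (COL1A1, DCN, VIM and FAP), 2 of 7 endothelial genes (KDR and ENG), 1 of 6 melanocyte genes (PMEL, listed as SILV) and 2 of 6 leukocyte genes (CD68 and LCP1) passed 1 RPKM in at least 1 library. PECAM1, TIE1 and TYR were at 0 in every library, and PTPRC, COL1A2, COL3A1, PDGFRA and PDGFRB did not exceed 0.026 RPKM. Libraries of the same group correlated across genes at 0.9895 to 0.9955 within a batch and at 0.9534 to 0.9617 between batches. In bulk RNA, fewer cells of a type and less RNA per cell cannot be told apart.

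Promoter windows from 250 bases before to 50 bases after an annotated start were matched by symbol for 8 of the 10 genes, 11 windows in all, while CYR61 and TEAD1 were not matched. The core TEAD word GGAATG, or CATTCC on the other strand, stood in 7 of the 11 windows, in 1 window of each gene but WWTR1. Of all 35116 windows of the table, 14.0% held the word at least 1 time, 1.37% at least 2 times and 0.128% at least 3 times. CTGF held it 3 times, starting 169, 104 and 95 bases upstream of the start, and ANKRD1 held it 2 times, at 220 and 128 bases. In THBS1 it lay 46 bases upstream, in YAP1 162 bases, and at the second annotated starts of AXL and AMOTL2 212 and 69 bases, while in LATS2 it lay 10 bases downstream. A loose form of the AP-1 word, TGANTCA with any base in the middle, stood in the ANKRD1 window alone among these genes, 195 bases upstream. It stood in 7.71% of all windows. The ANKRD1 match reads TGATTCA, without the C or G that the AP-1 consensus has in the middle. The stretches below are RefSeq sequence (GRCh38.p14) of CTGF, THBS1 and AXL, targets whose transcripts moved, and of ANKRD1, read 5′ to 3′ along the strand of the gene. The ANKRD1 difference from control was fixed by the filter on low values, as described below. Capitals mark the TEAD word on either strand, which is a match of letters and not a measured site.
CTGF, chr6:131951447-131951556, minus strand: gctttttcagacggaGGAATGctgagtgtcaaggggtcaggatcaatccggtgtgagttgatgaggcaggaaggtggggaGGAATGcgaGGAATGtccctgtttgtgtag
THBS1, chr15:39581018-39581053, plus strand: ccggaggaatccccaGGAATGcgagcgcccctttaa
AXL, chr19:41226528-41226563, plus strand: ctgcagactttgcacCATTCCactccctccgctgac
ANKRD1, chr10:90921195-90921322, minus strand: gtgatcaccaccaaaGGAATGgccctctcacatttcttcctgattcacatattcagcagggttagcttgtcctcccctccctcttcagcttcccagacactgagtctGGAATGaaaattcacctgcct

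**Figure D1:**
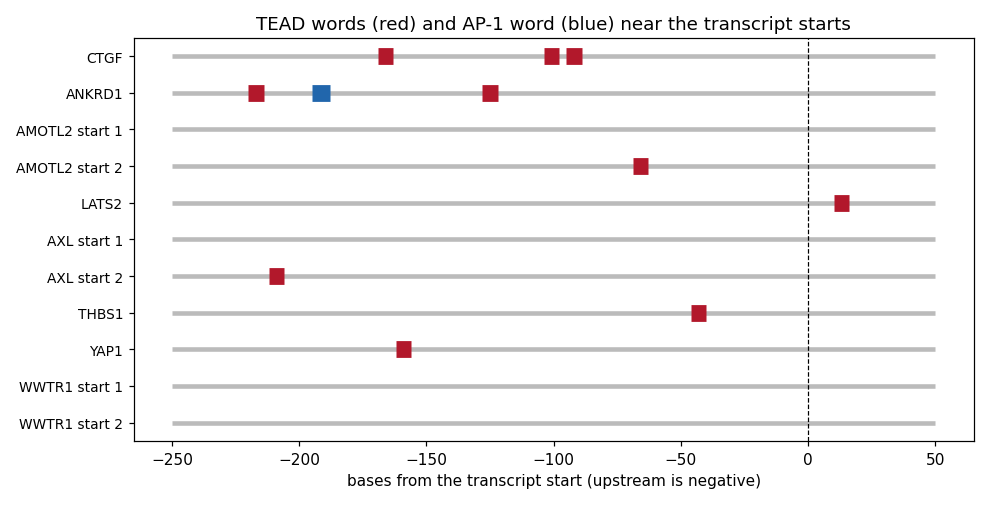
Positions of the TEAD word GGAATG (red, either strand) and of the loose AP-1 word TGANTCA (blue) in the RefSeq promoter windows of 8 genes, by distance in bases from the annotated start. CTGF carries 3 words and ANKRD1 carries 2, whereas neither WWTR1 window carries 1.

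The genes did not move as 1 block. Relative to control, Tet cells had less CTGF, THBS1, AXL, TEAD1 and YAP1 and more CYR61 and ANKRD1, while AMOTL2, LATS2 and WWTR1 did not pass the test. That is 2 of 10 higher and 5 of 10 lower, where 26.2% of all 12567 genes tested were higher, 29.9% lower and 56.1% called in either direction. Relative to Tet, Tet+EGF cells had more CTGF, THBS1, AXL, CYR61 and WWTR1, 5 of 10 higher, where 9.82% of all genes were higher, 9.15% lower and 19.0% called in either direction. None of the 10 was lower by limma at an adjusted p under 0.05, and 1, AMOTL2, was lower at an unadjusted p under 0.05. Relative to control, Tet+EGF cells had more CTGF, CYR61, THBS1 and WWTR1 and less TEAD1, 4 of 10 higher and 1 of 10 lower, where 16.0% of all genes were higher, 16.2% lower and 32.2% called. The median log2 difference of the 10 genes was -0.24 between Tet and control (-0.04 over all genes), 0.43 between Tet+EGF and Tet (0.02) and 0.41 between Tet+EGF and control (-0.01). Each pair of these comparisons shares libraries, so they are not independent of each other. Without the batch term CTGF, CYR61 and THBS1 passed in none of the 3 comparisons (limma adjusted p from 0.105 to 0.93). Without replicate 1 of control or of Tet, 4 of 10 were higher in Tet than in control, AMOTL2 and WWTR1 being added, and without replicate 2 or 3 of Tet, 1 was. All 10 genes passed the filter on low values, ANKRD1 only through the 2 Tet libraries of batch 1, where it was high. Its difference from control was therefore fixed by the filter, and of the other 9 genes 1 was higher and 5 were lower in Tet.

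**Figure D2:**
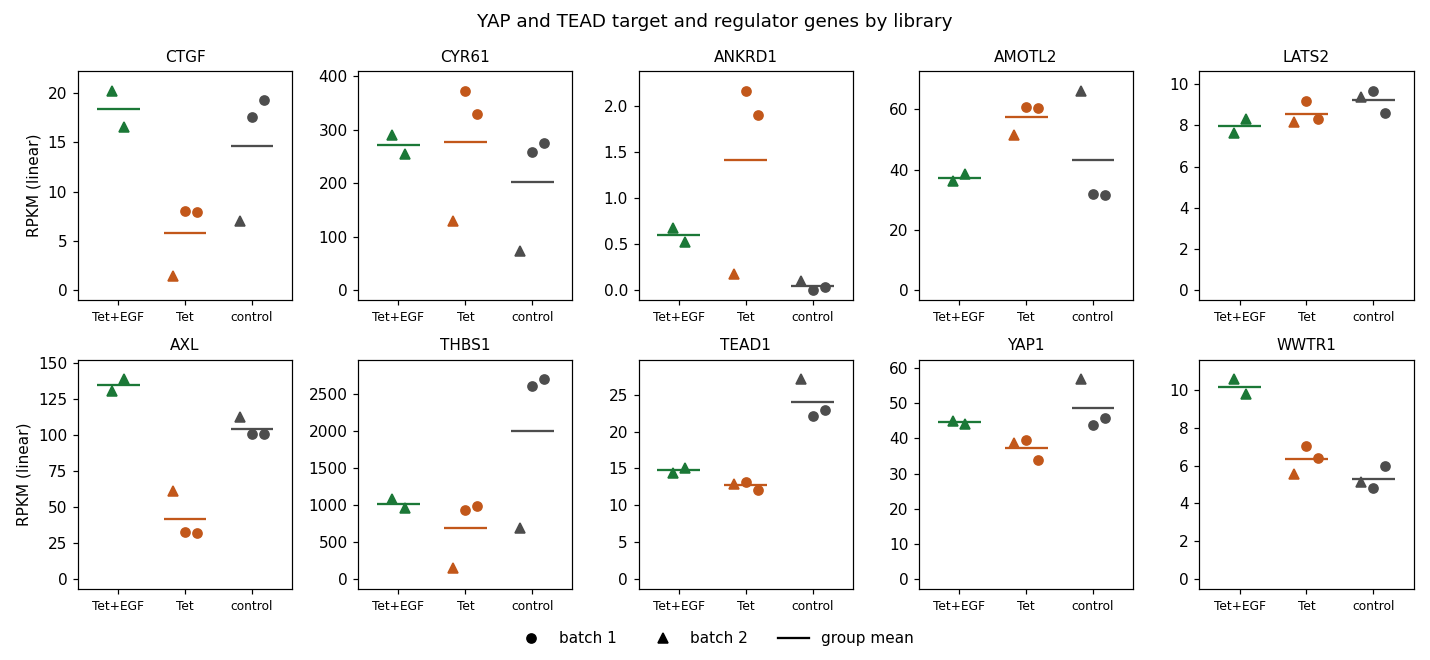
RPKM of the 10 genes in each library on a linear axis, with Tet+EGF left of Tet and Tet left of control (circles batch 1, triangles batch 2, line the group mean). AXL is lower in all 3 Tet libraries than in every other library, whereas CTGF, CYR61 and THBS1 split by batch within the Tet and control groups.

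CTGF encodes a secreted matricellular protein of the CCN family and is one of the most used readouts of YAP activity. Its level was 20.2 and 16.6 RPKM in the Tet+EGF libraries, 1.46 RPKM in the batch 2 Tet library with 8.07 and 7.96 RPKM in those of batch 1, and 6.97 RPKM in the batch 2 control library with 17.6 and 19.3 RPKM in those of batch 1. Within each batch Tet was lower than control, and both Tet+EGF libraries were above every Tet library, but the batch 2 control library fell below the 2 Tet libraries of batch 1. On the log2(RPKM + 0.5) scale, with batch in the fit, Tet minus control was -1.41 (SE 0.17, limma adjusted p = 0.00046). Tet+EGF minus Tet was 3.01 (SE 0.22, limma adjusted p = 0.000346) and Tet+EGF minus control 1.59 (SE 0.22, limma adjusted p = 0.00247). Within batch 2 alone these Tet+EGF differences were 3.27 and 1.33. Values within batch 2 rest on 1 Tet and 1 control library, and any p within that batch takes its spread from the 2 Tet+EGF libraries.

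THBS1, thrombospondin 1, an adhesive matrix glycoprotein, had the highest level of the 10 genes in every library. It stood at 1077 and 956 RPKM in the Tet+EGF libraries, 147 RPKM (batch 2), 932 and 990 RPKM (batch 1) in the Tet libraries, and 688 RPKM (batch 2), 2611 and 2695 RPKM (batch 1) in the control libraries. Tet was lower than control in each batch, yet the groups overlapped across batches, and the Tet+EGF values lay above both other libraries of batch 2 and below the control libraries of batch 1. In the fit, Tet minus control was -1.72 (SE 0.15, limma adjusted p = 0.000119) and Tet+EGF minus Tet 2.53 (SE 0.20, limma adjusted p = 0.000399). The difference between Tet+EGF and control was 0.81 (SE 0.20, limma adjusted p = 0.0206), 0.56 within batch 2, and it did not pass without either Tet+EGF library (limma adjusted p = 0.109 and 0.0651). It was 1.31 without the control replicate 1 library, and turned to -0.74 with no batch term (limma adjusted p = 0.578). Exons of FSIP1 overlap THBS1 on the opposite strand, and the labels do not say that counting used strand.

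CYR61, another secreted CCN protein, did not follow CTGF in Tet cells. Its level was 290.3 and 254 RPKM in the Tet+EGF libraries, 128 RPKM (batch 2), 373 and 329 RPKM (batch 1) in the Tet libraries, and 73.5 RPKM (batch 2), 257 and 276 RPKM (batch 1) in the control libraries. Tet was above control within each batch, the 2 groups overlapped between batches, and the Tet+EGF libraries were above the Tet and control libraries of their own batch but overlapped those of batch 1. Tet minus control was 0.53 (SE 0.11, limma adjusted p = 0.00493), and with replicate blocks instead of batches it did not pass (limma adjusted p = 0.288). Tet+EGF minus Tet was 1.21 (SE 0.14, limma adjusted p = 0.00184), and Tet+EGF minus control 1.74 (SE 0.14, limma adjusted p = 0.000334).

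Of the other CCN and thrombospondin genes, 2 of 8 passed the filter. THBS2 was lower in Tet than in control (-0.99, limma adjusted p = 0.000813) and higher in Tet+EGF than in Tet (1.59, limma adjusted p = 0.00153). THBS3 was higher in Tet than in control (0.75, limma adjusted p = 0.0122), but by only 0.19 within batch 2, a difference between single libraries.

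AXL encodes a receptor tyrosine kinase of the TAM family, bound by the ligand GAS6, and is a known YAP target in several epithelia. It was at 131 and 138 RPKM in the Tet+EGF libraries, 61.0 RPKM (batch 2), 32.4 and 31.9 RPKM (batch 1) in the Tet libraries, and 112, 100.4 and 100.4 RPKM in the control libraries. The 3 Tet libraries were the lowest and the 2 Tet+EGF libraries the highest, with no overlap between any of the groups. For AXL, Tet minus control was -1.38 (SE 0.15, limma adjusted p = 0.000273) and Tet+EGF minus Tet 1.39 (SE 0.19, limma adjusted p = 0.0036). Tet+EGF minus control was 0.01 (SE 0.19, limma adjusted p = 0.975) and depended on how batch was fitted. It was 0.26 within batch 2. It passed in opposite directions with a library left out, at 0.26 without the Tet replicate 1 library (limma adjusted p = 0.0112) and at -0.49 without the control replicate 1 library (limma adjusted p = 0.00336). The fit gives all groups the same step between batches, whereas Tet minus control of AXL differed between them (batch 2 minus batch 1, 0.76). VIM, vimentin, one of the fibroblast markers, was low in Tet and high in Tet+EGF like AXL, at 110 and 115 RPKM in Tet+EGF, 14.5, 5.30 and 4.06 RPKM in Tet and 48.8, 50.1 and 53.8 RPKM in control libraries. The sum of the 12 fibroblast markers ranged over 122.7 to 127.2 RPKM in Tet+EGF, 32.4 to 41.9 RPKM in Tet and 58.7 to 69.3 RPKM in control libraries. That of the 6 leukocyte markers ranged over 108.7 to 109.3 RPKM in Tet+EGF, 29.2 to 41.6 RPKM in Tet and 47.5 to 59.05 RPKM in control libraries. VIM made up most of the fibroblast sum in Tet+EGF and control libraries, and CD68 and LCP1 nearly all of the leukocyte sum. The sums therefore do not speak for the whole lists. Other genes of the fibroblast list went the opposite way. DCN was higher in Tet than in control (3.96, limma adjusted p = 3.64e-06) and lower in Tet+EGF than in Tet (-4.00, limma adjusted p = 2.8e-05), and COL1A1 likewise (2.07 and -1.48, limma adjusted p = 8.19e-05 and 0.00459), while FAP did not pass in either. The part of these markers in the AXL, CTGF and THBS1 results was not tested, and the fibroblast genes COL1A2, COL3A1, PDGFRA and PDGFRB were near 0 throughout.

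Around AXL, 3 of 4 other TAM receptor and ligand genes passed the filter. TYRO3, the sister receptor, was lower in Tet (-1.43, limma adjusted p = 4.03e-05) and in Tet+EGF (-1.52, limma adjusted p = 0.000365) than in control. The ligand genes GAS6 and PROS1 were higher in Tet than in control (0.57 and 0.83, limma adjusted p = 0.00587 and 0.00194). Relative to Tet, Tet+EGF cells had less PROS1 (-0.74, limma adjusted p = 0.0307, 0.149 and 0.152 without either Tet+EGF library), and GAS6 was 0.99 above control in Tet+EGF (limma adjusted p = 0.00439).

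ANKRD1 encodes a nuclear ankyrin repeat protein induced by YAP and by tension in many cell types. In these cells it was low throughout, at 0.669 and 0.523 RPKM in the Tet+EGF libraries, 0.171 RPKM (batch 2), 2.16 and 1.90 RPKM (batch 1) in the Tet libraries, and 0.095 RPKM (batch 2), 0 and 0.037 RPKM (batch 1) in the control libraries. Both groups given tetracycline lay above all control libraries, but the Tet group itself spanned a wide range, with the Tet+EGF libraries inside it. Scaled by the depth estimate, the control values were 3, 0 and 1 times that of control replicate 3, the smallest above 0. They may rest on very few reads, but read numbers were not seen. As a description, since the filter kept ANKRD1 only for its high Tet libraries, Tet minus control was 1.58 on the log2(RPKM + 0.5) scale (SE 0.40), 2.29 in batch 1 and 0.17 in batch 2. Without the control replicate 1 or Tet replicate 1 library it was 2.29, and without either batch 1 Tet library ANKRD1 no longer passed the filter. Tet+EGF minus Tet was 0.00057 (SE 0.53), and turned to -1.41 when replicate 1 of Tet was left out and to 0.70 when replicate 1 of control was. Tet+EGF minus control was 1.58 (SE 0.53), 0.88 with replicate 1 of Tet left out and 2.99 with replicate 1 of control left out. The same filter kept ANKRD1 for these comparisons, so they too are descriptions only.

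AMOTL2, a junction protein of the angiomotin family that binds YAP and restrains it, stood on opposite sides of control in the 2 batches. Its level was 36.2 and 38.4 RPKM in the Tet+EGF libraries, 51.3 RPKM (batch 2), 60.8 and 60.4 RPKM (batch 1) in the Tet libraries, and 66.2 RPKM (batch 2), 31.9 and 31.5 RPKM (batch 1) in the control libraries. The batch 2 control library was the highest of all 8 and its 2 batch 1 counterparts the lowest. In AMOTL2, Tet minus control was 0.92 in batch 1 (limma adjusted p = 4.33e-05) and -0.36 in batch 2, a difference between single libraries, and 0.49 over both (SE 0.24, limma adjusted p = 0.114). Tet+EGF minus Tet was -0.88 (SE 0.31, limma adjusted p = 0.0983), with all Tet+EGF libraries below all Tet libraries. It was -0.46 within batch 2, against a single Tet library. Tet+EGF minus control was -0.39 (SE 0.31, limma adjusted p = 0.374), but -0.82 when replicate 1 of Tet was left out and 0.47 when replicate 1 of control was, past the threshold in each (limma adjusted p = 9.72e-05 and 0.00502).

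LATS2, the Hippo kinase, was at 7.63 and 8.30 RPKM in the Tet+EGF libraries, 8.17, 9.20 and 8.29 RPKM in the Tet libraries and 9.37, 9.69 and 8.60 RPKM in the control libraries. Its values spanned the narrowest range of the 10 genes, with Tet+EGF below control and inside or just below the range of Tet. Tet minus control was -0.10 (SE 0.09, limma adjusted p = 0.355), Tet+EGF minus Tet -0.08 (SE 0.12, limma adjusted p = 0.692) and Tet+EGF minus control -0.18 (SE 0.12, limma adjusted p = 0.275).

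The 2 coactivators differed from each other. YAP1 was at 44.9 and 44.3 RPKM in the Tet+EGF libraries, 38.7, 39.6 and 33.8 RPKM in the Tet libraries and 56.8, 43.7 and 45.8 RPKM in the control libraries. All Tet libraries were below all others, and the Tet+EGF libraries fell inside the control range. For YAP1, Tet minus control was -0.37 (SE 0.09, limma adjusted p = 0.00989), and Tet+EGF minus Tet was 0.11 (SE 0.12, limma adjusted p = 0.552). The difference from Tet was 0.20 within batch 2, which holds 1 Tet and 1 control library, and -0.06 without replicate 1 of Tet. Tet+EGF minus control was -0.26 (SE 0.12, limma adjusted p = 0.134). It was -0.35 within batch 2 and without replicate 1 of Tet, but -0.08 without replicate 1 of control, the highest control library. WWTR1 was at 10.6 and 9.80 RPKM in the Tet+EGF libraries, 5.59, 7.08 and 6.41 RPKM in the Tet libraries and 5.16, 4.80 and 5.97 RPKM in the control libraries. The Tet+EGF libraries lay above all others, whereas Tet and control overlapped. WWTR1 was 0.98 higher in Tet+EGF than in control (SE 0.14, limma adjusted p = 0.00279) and 0.74 higher than in Tet (SE 0.14, limma adjusted p = 0.0126), the difference from Tet no longer passing without either Tet+EGF library (limma adjusted p = 0.1 and 0.0667). Tet minus control was 0.24 (SE 0.11, limma adjusted p = 0.095), but 0.31 when replicate 1 of control was left out (limma adjusted p = 0.0481).

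TEAD1, a DNA-binding partner of both coactivators, was at 14.4 and 15.1 RPKM in the Tet+EGF libraries, 12.8, 13.2 and 12.1 RPKM in the Tet libraries and 27.1, 22.1 and 22.9 RPKM in the control libraries. Every library with tetracycline, with or without EGF, was below every control library. The TEAD1 difference, Tet minus control, was -0.89 (SE 0.08, limma adjusted p = 0.00014), -0.81 in batch 1 and -1.05 in batch 2. Tet+EGF minus control was -0.78 (SE 0.11, limma adjusted p = 0.00233), and Tet+EGF minus Tet 0.11 (SE 0.11, limma adjusted p = 0.522). Of the 10 genes, TEAD1 alone passed as lower in both Tet and Tet+EGF relative to control.

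**Figure D3:**
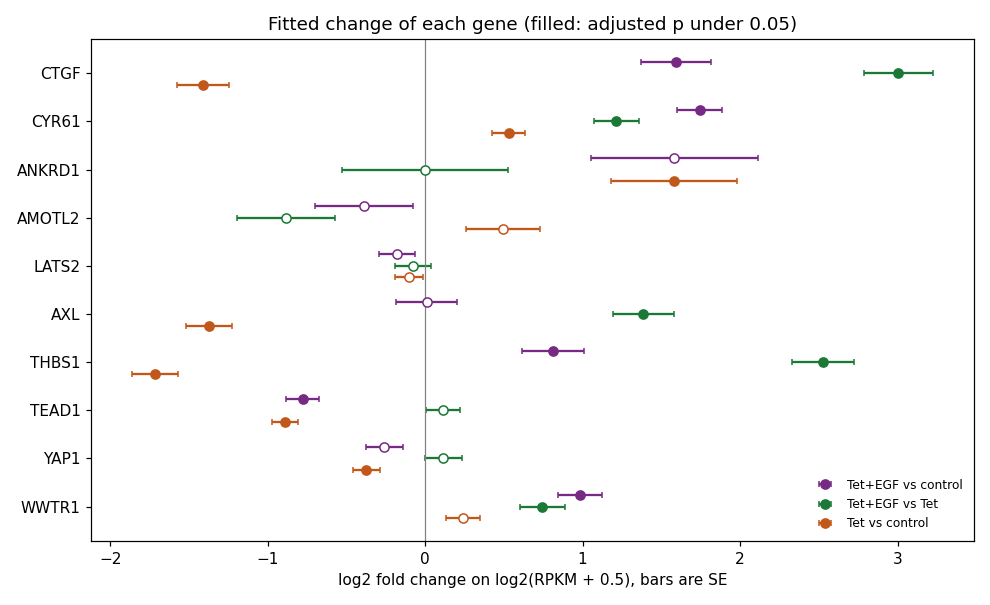
Differences of the 10 genes on the log2(RPKM + 0.5) scale with their SE for Tet+EGF minus Tet, Tet+EGF minus control and Tet minus control, filled where the limma adjusted p was under 0.05. CTGF, THBS1 and AXL are below 0 for Tet minus control and above 0 for Tet+EGF minus Tet, while TEAD1 is below 0 against control in both.

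The remaining TEAD genes and the VGLL genes, whose products bind TEAD proteins, were read from a list of 7, of which 6 passed the filter and VGLL2 was at 0 in every library. Relative to control, Tet cells had more VGLL3 (1.66), VGLL1 (1.51), VGLL4 (1.08), TEAD2 (0.58) and TEAD3 (0.53) and less TEAD4 (-0.95), with limma adjusted p from 3.06e-05 to 0.009. TEAD3 did not pass within batch 2 (0.13, limma adjusted p = 0.179). VGLL1 stood at 13.5 and 12.5 RPKM in the Tet+EGF libraries, 39.4, 49.2 and 50.9 RPKM in the Tet libraries and 15.7, 17.1 and 15.1 RPKM in the control libraries, so Tet was apart from both other groups. TEAD4 stood at 7.51 and 7.76 RPKM in Tet+EGF, 7.25, 7.88 and 7.27 RPKM in Tet and 15.2, 14.9 and 14.5 RPKM in control libraries, a split by tetracycline like that of TEAD1. Relative to Tet, Tet+EGF cells had less VGLL1 (-1.67), VGLL3 (-0.89) and VGLL4 (-0.54), with limma adjusted p = 0.000346, 0.0114 and 0.0247, while TEAD2, TEAD3 and TEAD4 did not pass. The VGLL3 and VGLL4 differences did not pass without either Tet+EGF library. Mean levels ranked TEAD3, TEAD1, TEAD2, TEAD4 in Tet cells, at 32.1, 12.7, 11.9 and 7.47 RPKM. In control cells the means were 24.0 RPKM for TEAD1, 22.4 for TEAD3, 14.9 for TEAD4 and 7.73 for TEAD2. TEAD1 and TEAD3 overlapped in control libraries, as did TEAD1 and TEAD2 in Tet libraries.

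**Figure D4:**
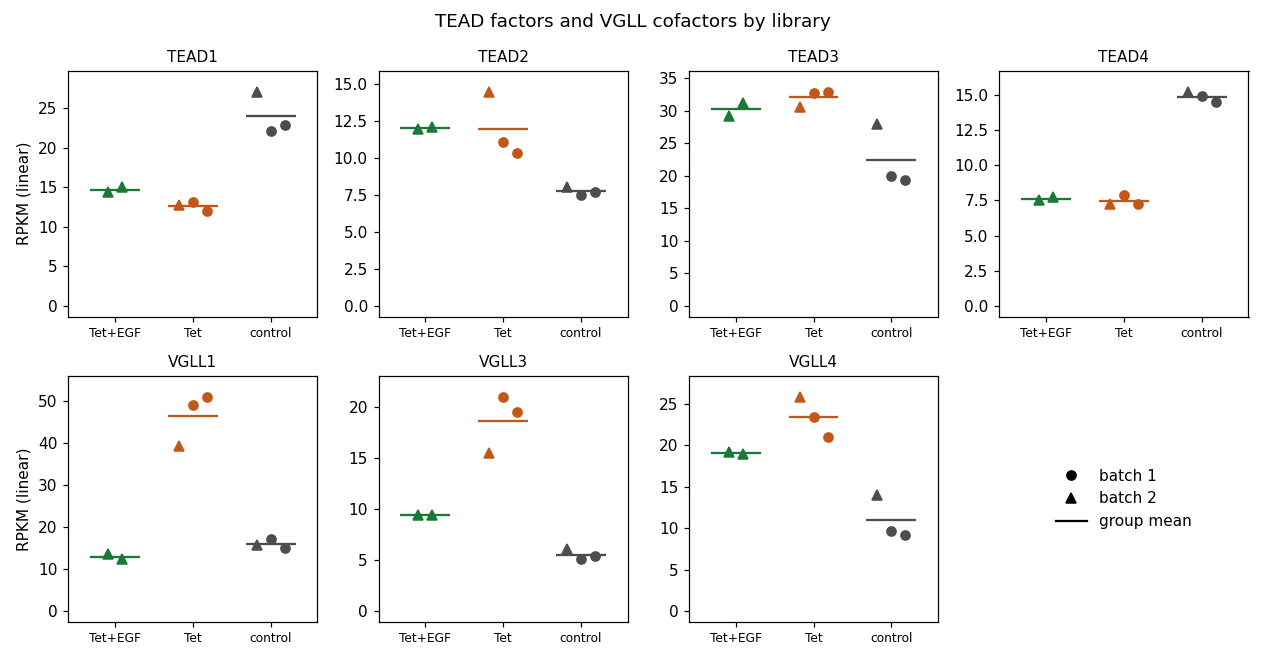
RPKM of the TEAD genes and of VGLL1, VGLL3 and VGLL4 in each library on a linear axis, with Tet+EGF left of Tet and Tet left of control (circles batch 1, triangles batch 2, line the group mean). TEAD1 and TEAD4 are low in all libraries with tetracycline, and the 3 VGLL genes are highest in Tet.

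Upstream of YAP, 32 of 34 listed Hippo kinase, adaptor and regulator genes passed the filter. Relative to control, 5 were higher and 8 lower in Tet, neither share above that of all genes (26.2% and 29.9%), the smallest p belonging to PPP2R1A (-0.79), a scaffold of the phosphatase PP2A, FRMD6 (-0.89), an upstream FERM protein, TAOK2 (0.60), a kinase that acts on the MST kinases, and SIKE1 (-0.69), of the STRIPAK phosphatase complex. Relative to Tet, 6 were higher and 1 lower in Tet+EGF (9.82% and 9.15% over all genes), with DLG5 (0.72), FRMD6 (0.71) and NF2 (0.56), which encodes Merlin, higher and STK38 (-0.75), a kinase related to LATS1, lower. NF2 did not pass without either Tet+EGF library (limma adjusted p = 0.0615 and 0.0698), nor FRMD6 without replicate 2 of Tet+EGF (limma adjusted p = 0.0523). The list medians were -0.07 and 0.10. Relative to control, 5 were higher and 4 lower in Tet+EGF (16.0% and 16.2% over all genes).

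Of 24 other widely used YAP targets, 22 passed the filter, and 5 were higher and 6 lower in Tet than in control, with a median of 0.12. These shares are close to those of all genes, at 26.2% and 29.9%, and are no result about the targets as a list. EDN1, endothelin 1, rose by 2.20 and CCDC80 by 1.21, while NT5E, a surface nucleotidase, fell by 2.03 and ASAP1 by 1.17 on the log2 scale. NT5E stood at 101 and 102 RPKM in the Tet+EGF libraries, 15.1, 15.1 and 14.4 RPKM in the Tet libraries and 47.2, 69.3 and 73.1 RPKM in the control libraries, with no overlap between any of the groups. Relative to Tet, 8 were higher and 4 lower in Tet+EGF (9.82% and 9.15% over all genes), with a median of 0.003. F3, tissue factor, was 3.05 higher and NT5E 2.92, while CCDC80 was at -1.65. F3 split by batch like CTGF and THBS1, at 211 and 164 RPKM in the Tet+EGF libraries, 18.2 RPKM (batch 2), 232 and 234 RPKM (batch 1) in the Tet libraries and 33.5 RPKM (batch 2), 233 and 255 RPKM (batch 1) in the control libraries, and it did not pass without the batch term (limma adjusted p = 0.7). Relative to control, 7 were higher and 5 lower in Tet+EGF (16.0% and 16.2% over all genes).

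The size of the Tet difference was itself compared between batches. Of the 10 genes, 5 differed by limma's interaction test, where 26.7% of all genes did, and without ANKRD1, whose filter chose the batch 1 Tet libraries, 4 of 9 did. For CTGF and THBS1 the fall was larger in batch 2, at -1.93 and -2.22, than in batch 1, at -1.15 and -1.47. For AXL it was larger in batch 1 (-1.63) than in batch 2 (-0.87), ANKRD1 was higher mainly in batch 1, and AMOTL2 changed sign. CYR61, LATS2, TEAD1, YAP1 and WWTR1 did not pass this test. The main fit gives all groups the same step between batches, and Tet+EGF is in batch 2 only. For the genes that passed, the Tet+EGF differences of the main fit therefore rest on an assumption that this test went against. Batch 2 holds a single Tet and a single control library, so the test rests on their spread being like that of the other libraries.

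**Figure D5:**
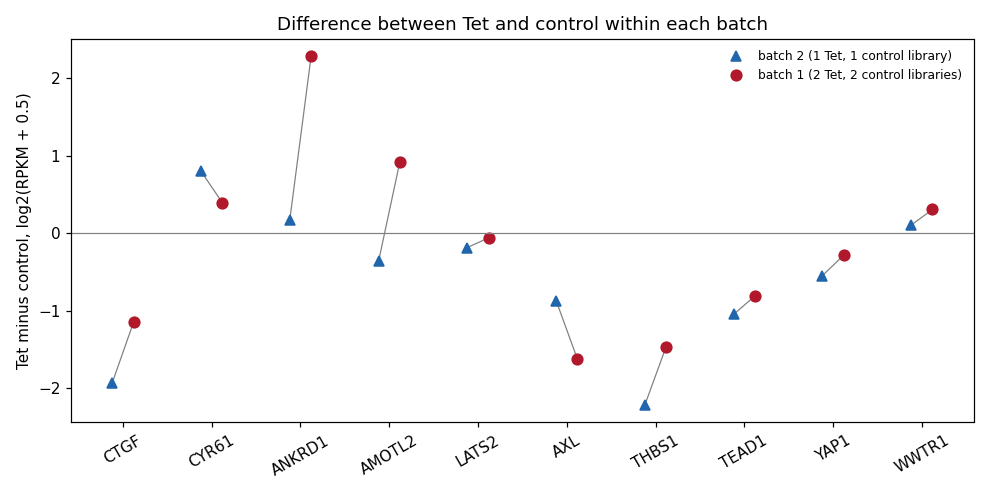
Tet minus control on the log2(RPKM + 0.5) scale for each gene within batch 2 (triangles, 1 Tet and 1 control library) and batch 1 (circles, 2 Tet and 2 control libraries). The paired points lie on opposite sides of 0 for AMOTL2 and on the same side for the other 9 genes.

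The levels of the 10 genes spanned a wide range in control cells, from THBS1 through CYR61, AXL, YAP1, AMOTL2, TEAD1, CTGF, LATS2 and WWTR1 to ANKRD1. Of neighbours in that order, CYR61 and AXL, YAP1 and AMOTL2, and CTGF and LATS2 overlapped between libraries, and the others did not. The genes most alike were found from centred log2(RPKM + 0.5) over the 8 libraries among 8544 other genes (8545 for ANKRD1). Differences between batches were left in, so likeness may reflect batch as well as group. IL1A (root mean square difference 0.192) and PTHLH (0.237) were nearest to CTGF, ERRFI1 (0.347) to THBS1, SOX4 (0.158) to ANKRD1 and LTBP2 (0.0979) to WWTR1. Within the set, CTGF and THBS1 were nearest each other (0.525), THBS1 ranking 21st among the genes for CTGF and CTGF 6th for THBS1, whereas the nearest of the set to CYR61 was WWTR1, ranking 988th.

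None of the 10 3′ UTRs held CCAAGTCA, an 8-base word that the AREG mRNA also holds and that stood in 4.54% of the 18806 genes whose annotated 3′ UTR reached 100 bases (GENCODE v29). The 7-base words CCAAGTC and CAAGTCA both occurred in that of TEAD1, and CAAGTCA in that of AMOTL2. Over the same 18806 genes, CCAAGTC stood in 13.2% and CAAGTCA in 13.9%, so their presence here is no result about these genes. These words were searched because of earlier results of these data, and the sequence of the hairpin was not used here.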

How the data were processed

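Polyadenylated RNA of 8 libraries was sequenced, 1 library per lane, per the labels' protocols. Alignment used TopHat 1.3.3, per the submitters' processing notes. How reads were counted, and on which genome build and gene models, was not given in the sources used here. The authors deposited RPKM values, 1 column per library. RPKM is not a count, so log2(RPKM + 0.5) was analysed for the 12567 of 21510 genes that reached an RPKM of 1 in 2 or more libraries. limma 3.58.1 (R 4.3.3) fitted group plus batch to the 8 libraries together, with a trended eBayes step. Tests are two-sided, with Benjamini-Hochberg adjustment over all genes kept and a threshold of 0.05. The pseudocount understates changes of low genes such as ANKRD1. A second limma fit added the interaction of batch with Tet. The scripts were tested on simulated data in which every group had the same step between batches, so that test does not cover genes whose Tet difference differed between batches.

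The 10 genes and the other lists were chosen with earlier results of these data known. Named were all 10 genes, AREG, up to 4 called genes with the smallest p of each other list per comparison, all TEAD genes past the filter, other cells' markers above 1 RPKM, and the genes most alike in pattern; some genes that this rule names are not reported here. Library values of NT5E, F3, VIM and VGLL1 were picked for print after they were seen.

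Whether replicates were separate cultures is not stated in the labels, so the p-values reflect no more than the spread among these libraries, which may be technical. Control and Tet libraries of the same number deviated together (their departures from the group mean correlated at 0.476, 0.314 and 0.338 over genes). Each such pair also shared a batch named in the sample descriptions, and different numbers within batch 1 gave 0.272 and 0.334. Whether number or batch lay behind these values was not tested. The number was therefore tried as a block. Alternatives were other pseudocounts, filters and scalings, no batch term, only the groups compared, eBayes without a trend, single batches, and fits without 1 library at a time. Promoter and 3′ UTR words were searched in RefSeq (GRCh38.p14) and GENCODE v29 sequence with Python 3.11.15.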

Additional observations from a re-analysis of the deposited data

Results flagged for a closer look

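The Tet difference of 5 of the 10 genes differed between batches by limma's interaction test, which rests on 1 Tet and 1 control library in batch 2. Taken as batch 2 minus batch 1, it was -0.78 for CTGF (limma adjusted p = 0.0206), -2.11 for ANKRD1, which passed the filter on low values only through the batch 1 Tet libraries so that its test is no support, -1.29 for AMOTL2 (limma adjusted p = 0.000736), 0.76 for AXL (limma adjusted p = 0.00243) and -0.75 for THBS1 (limma adjusted p = 0.00673). AREG, the target of the hairpin, also differed between batches (-1.94, limma adjusted p = 0.000815), with Tet minus control at -5.47 in batch 2 and -3.53 in batch 1 on the log2 scale. Its part in the other differences was not tested. The CTGF interaction did not pass with no filter on low values (limma adjusted p = 0.0747).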

How the results depend on the processing

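Over 40 fold changes of the 10 genes (4 comparisons), 631 of the alternative values kept direction and call, 28 newly passed, 20 no longer passed and 15 changed sign. For Tet against control, 2 genes were higher, but 1 in batch 2 alone, with a mean RPKM of at least 5, with no batch term and with the replicate block, and 1 to 4 with a library left out. As lower, 5 were called, but 3 with no batch term. For Tet+EGF against Tet, 5 were higher but 2 with no batch term and 2 with the replicate block, and 0 lower but 1 in batch 2 alone or with only the 2 groups, and 0 to 2 with a library left out. For Tet+EGF against control, 4 were higher but 1 with no batch term and 1 with the replicate block, and 1 lower but 3 in batch 2 alone or with only the 2 groups, and 1 to 3 with a library left out. Over all genes, 2384 were called for Tet+EGF against Tet, against 5678 in batch 2 alone, 1163 with no batch term, 4205 with the 2 groups, 849 with the replicate block and 812 to 4879 with a library left out. For Tet+EGF against control, 4051 were called, against 7843, 7006 (2 groups), 2295 (block) and 1585 to 6581.

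Signs changed as follows. AMOTL2 was -0.36 for Tet against control in batch 2 alone, and -0.82 to 0.47 for Tet+EGF against control with a library left out. AXL for Tet+EGF against control was -0.0199 with quantile scaling and -0.49 to 0.26 with a library left out, and THBS1 was -0.74 with no batch term and -0.33 with the replicate block. For Tet+EGF against Tet, ANKRD1 was -0.0338 with median-ratio scaling, -0.57 with no batch term, -0.0464 with a pseudocount of 1, -0.43 with the block and -1.41 to 0.70 with a library left out. TEAD2 was 0.0201 with no batch term. With a library left out, AREG was -0.49 to 1.46, TEAD1 -0.0474 to 0.19, YAP1 -0.0607 to 0.20, TEAD2 -0.26 to 0.0839 and TEAD4 -0.035 to 0.0689. Tet+EGF is in batch 2 only. Without replicate 1 of control the step between batches comes from Tet alone, and without replicate 1 of Tet from control alone. Those fits therefore differ where the Tet difference itself differed between batches. Beyond that, the cause of these changes was not tested.

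Tet+EGF libraries and others of the same number correlated at -0.31 and -0.137 within batch 2 and at -0.263 and -0.155 across batches. Departures of 2 Tet+EGF libraries from their mean mirror each other, so these values are not separate evidence and cannot settle pairing. The replicate block drops batch and ties replicate 2 to batch 1. With it, CYR61 was 0.38 for Tet+EGF against Tet and 0.91 for Tet+EGF against control and passed in neither (limma adjusted p = 0.661 and 0.182). With the block, CTGF did not pass for Tet+EGF against control (0.74, limma adjusted p = 0.311), nor WWTR1 for Tet+EGF against Tet (0.69, limma adjusted p = 0.0641). THBS1 in Tet+EGF passed neither against Tet (1.38, limma adjusted p = 0.222) nor against control (-0.33, limma adjusted p = 0.71). Between Tet and control the block changed no call of the 10 genes beside that of CYR61. Among the lists, Hippo genes higher in Tet+EGF than in control numbered 0 to 12 and lower 3 to 11 (5 and 4 as reported), those lower in Tet than in control 6 to 16 (8), and higher 3 to 7 (5). Hippo genes higher in Tet+EGF than in Tet numbered 1 to 9 (6) and lower 1 to 6 (1). Other YAP targets higher and lower numbered 3 to 7 (5) and 5 to 9 (6) for Tet against control, 4 to 10 (8) and 1 to 7 (4) for Tet+EGF against Tet, and 3 to 9 (7) and 1 to 7 (5) for Tet+EGF against control. TEAD and VGLL genes lower in Tet+EGF than in Tet numbered 1 to 4 (3), and those higher and lower in Tet+EGF than in control 0 to 3 (3) and 1 to 2 (1). With batch 2 alone, the spread comes from the 2 Tet+EGF libraries, and lone libraries are assumed to vary like them. The interaction could not be fitted without replicate 1 of control or Tet. No scaling moved the median of all genes by over 0.1.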
